A study of Mus musculus with 6 samples.

Results

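The genes described here are 10 imprinted genes that control growth, Igf2, H19, Meg3, Dlk1, Peg3, Peg10, Plagl1, Grb10, Cdkn1c and Mest, measured in mouse neural stem cells with and without the microRNA miR-128. Every row of the deposited table whose RefSeq transcript carries one of these symbols was taken. That gave 20 of 32025 transcript rows, for 9 of the 10 genes. H19 matched no row through the RefSeq gene table and was not analysed here. Of the 20 rows 19 had values of their own, since both Peg10 rows hold identical values. A gene with several rows is given by the row of highest mean over all arrays, and the others are described beside it. That mean includes the miR-128 arrays. For Meg3 and Igf2 another row was highest on the control arrays alone, so for them the choice depended on values that are compared.

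The cells were neural stem cells of the CD-1 albino strain, taken at stage E14.5 and grown as floating neurospheres under proliferating conditions. Neither the sex of the embryos nor the brain region is given in the labels. By nucleofection, an electrical transfection method, 3 cultures received a miR-128 mimic and 3 received a control RNA named miR-Control, and both groups carried no other stated change. Total RNA taken after 72 h went to 1 exon array per culture. The design asks which transcripts differ once miR-128 is present in cells that do not normally make it. The labels call the cultures biological triplicates, without saying whether they came from separate embryos.

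Imprinted genes are expressed mainly from the copy inherited from 1 parent in at least some tissues, and this can differ between cell types. Paternally expressed imprinted genes often promote growth of the embryo and placenta, and maternally expressed ones often restrain it. Among the genes here Igf2, Dlk1, Peg3, Peg10, Plagl1 and Mest are known as paternally expressed, and H19, Meg3, Cdkn1c and Grb10 as maternally expressed, although Grb10 is expressed from the paternal copy in neurons. Several of them are known to take part in keeping neural stem cells in balance between division, rest and differentiation. An array that measures total RNA of a gene does not tell its parental copies apart.

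The agent added to the cells is shown by the mature sequence of the microRNA it mimics, from RefSeq on build GRCm38.p6, with bases 2 to 8, the seed that pairs with targets, in capitals. The labels do not say which arm the mimic carried, and the 3p arm, made from both miR-128 genes, is printed.

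miR-128-3p: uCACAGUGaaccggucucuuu

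Sequences around start sites are shown for Meg3 and Plagl1, whose arrays did not overlap between groups in the rows used, and for Mest, whose level differed least. Each runs from 250 bases before to 50 bases after an annotated start, from RefSeq on build GRCm38.p6. The genome build behind the array's probe groups is not given in the sources used here. Capitals mark TGCCGC and its reverse complement GCGGCA, the letters of the site bound by ZFP57, a zinc finger protein that keeps imprints in place. Meg3 and Mest have further windows, some without these letters. The windows printed are ones that hold them.

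Meg3, chr12:109540746-109541045, + strand: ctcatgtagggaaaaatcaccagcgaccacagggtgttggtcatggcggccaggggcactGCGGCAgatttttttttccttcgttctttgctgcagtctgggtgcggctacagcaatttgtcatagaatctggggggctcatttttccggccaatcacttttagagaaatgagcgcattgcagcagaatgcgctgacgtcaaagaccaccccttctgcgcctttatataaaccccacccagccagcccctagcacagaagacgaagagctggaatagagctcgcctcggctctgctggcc
Plagl1, chr10:13090582-13090881, + strand: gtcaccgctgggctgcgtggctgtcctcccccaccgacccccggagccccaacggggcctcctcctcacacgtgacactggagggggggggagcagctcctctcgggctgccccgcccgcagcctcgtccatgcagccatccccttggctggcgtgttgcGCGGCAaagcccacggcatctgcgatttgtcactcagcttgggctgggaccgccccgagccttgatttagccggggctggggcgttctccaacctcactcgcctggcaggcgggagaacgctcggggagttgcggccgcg
Mest, chr6:30737803-30738102, + strand: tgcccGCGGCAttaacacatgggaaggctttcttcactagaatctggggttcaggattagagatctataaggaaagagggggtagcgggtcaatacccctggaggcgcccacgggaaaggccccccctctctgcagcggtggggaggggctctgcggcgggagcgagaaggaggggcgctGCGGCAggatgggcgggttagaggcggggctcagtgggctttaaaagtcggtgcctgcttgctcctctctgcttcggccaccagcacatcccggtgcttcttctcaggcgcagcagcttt

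The start-site table held 14 windows for 7 of the 10 genes and none for H19, Peg10 and Cdkn1c. TGCCGC was present, on either strand, in 6 of these 14 windows (42.9%), which belong to Igf2, Meg3, Plagl1, Grb10 and Mest, where 11.6% of all 32851 windows in the table hold it. Both Mest windows that hold it overlap almost fully and carry the same 2 matches. Windows rich in CpG hold these letters more often: among windows with an observed over expected CpG ratio above 0.6 the share was 24.3% for all genes, and 5 of 6 windows of the imprinted genes. The letters GGGGCCCC, bound by PLAGL1, occurred in 1 window, that of Peg3, against 1.08% of all windows. AAGATGGC, a YY1 site, occurred in none, against 2.75%. These matches describe letters in a window and are no measurement of binding.

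The 6 arrays had median log2 values between 7.40 and 7.54. One array, miR-Control replicate 3, differed most from the rest, with an interquartile range of 2.87 against 2.98 to 3.22 and a place of 42.5 on the first principal component (35.4% of the variance) against -18.7 to -0.226. The fold change of each of the 9 genes is given with and without this array. Of 8 fixed markers of radial glia and neural stem cells, Vim (13.57), Fabp7 (12.61), Slc1a3 (12.22), Sox2 (11.94) and Nes (11.06) had high mean log2 signals on the control arrays, Hes5 (9.01) and Pax6 (8.79) intermediate ones and Prom1 a low one (5.85). The 10 fixed markers of microglia and endothelium, cell types that neurospheres largely lack, lay between 4.77 (Ptprc) and 7.31 (Cx3cr1). RMA, the method behind the deposited values, gives no detection call, so signal over background is unknown for each row. Signals of different genes also depend on their probes, and their order is therefore no order of transcript abundance.

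No difference between miR-128 and miR-Control was called for any of the 9 measured imprinted genes. In limma none passed an adjusted p of 0.05, where 0% of all 32025 rows did, and the adjusted p-values of the 9 genes ran from 0.685 for Meg3 to 1.00 for Mest. At an unadjusted p under 0.05 there was 1 gene, Meg3, against 7.15% of all rows, 7.13% of named genes and, on the higher side alone, 3.74% of named genes. The Meg3 row behind this count was chosen with the miR-128 values included. Values were higher with miR-128 for 8 genes and lower for 1, Igf2, with a median log2 difference of 0.11 beside 0.02 over the 20263 named genes, of which 56.2% were higher. With arrays centred on their medians the split was 6 higher and 3 lower, because Grb10 (-0.00251) and Mest (-0.03) changed sign. Without miR-Control replicate 3 it was 8 higher and 1 lower, with a median of 0.15, while Igf2 (0.08) and Mest (-0.05) changed sign. Over the 9 genes the 95% intervals reached from -0.29 to 0.61 on the log2 scale, the last for Peg10 and equal to a 1.53-fold rise, so larger differences in the mean lay outside the interval of every gene.

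**Figure D1:**
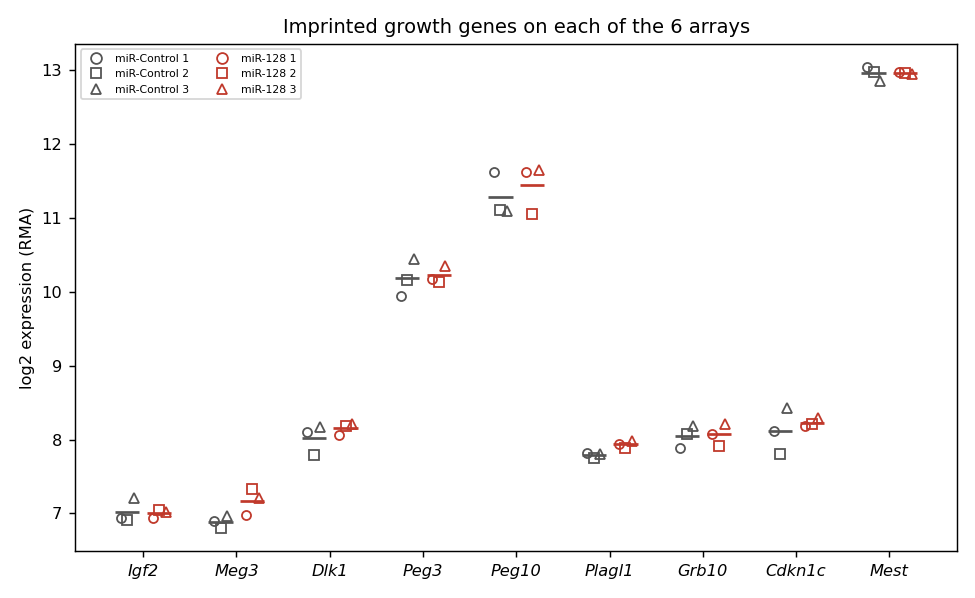
Log2 expression (y axis, RMA values as deposited) of the 9 measured imprinted genes (x axis) on the 3 miR-Control arrays (grey) and the 3 miR-128 arrays (red), with 1 symbol per replicate and a line at each group mean. In the rows shown, groups overlap for 7 genes. For Meg3 and Plagl1 all miR-128 arrays lie above all controls, and Peg10 splits into arrays near 11.62 and arrays near 11.1 within both groups.

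Among the secreted and membrane-bound growth factors, Igf2 encodes insulin-like growth factor 2, a ligand of the IGF1 receptor that is cleared by the IGF2 receptor. Its log2 values were 6.93, 6.92 and 7.21 on the control arrays, in the order of replicates 1 to 3, against 6.94, 7.04 and 7.02 on the miR-128 arrays. The high control array was replicate 3, and all miR-128 arrays lay within the range of the controls. Control and miR-128 means were 7.021 ± 0.16 and 7.002 ± 0.05 (SD, n = 3), which is a difference of -0.02 in log2 (SE 0.12, 95% interval -0.28 to 0.24, adjusted p = 0.995 in limma). Its other 2 rows differed by -0.06 and 0.01. The difference turned to 0.08 when miR-Control replicate 3 was left out (adjusted p = 0.720), to 0.01 when miR-128 replicate 1 was, and to 0.03 under array weights. Its control mean lay inside the range of the microglia and endothelium markers, at the 42.5th percentile of all rows.

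Dlk1 encodes a membrane protein related to Notch ligands that is also released from cells, and it is the paternally expressed neighbour of Meg3. The arrays gave 8.10, 7.79 and 8.17 on control arrays against 8.06, 8.18 and 8.21 on miR-128 arrays. Replicate 2 was the low control, and the other 2 controls lay among the miR-128 arrays. The group means were 8.02 ± 0.20 and 8.15 ± 0.08 (SD, n = 3), which is a difference of 0.13 in log2 (SE 0.13, 95% interval -0.16 to 0.42, adjusted p = 0.935 in limma). The difference rested on the low control: without miR-Control replicate 2 it was 0.01, and without miR-Control replicate 3 it was 0.21 (adjusted p = 0.496). All 5 Dlk1 rows were higher with miR-128, by 0.07 to 0.13. Transcripts of a gene can share probes, so these rows cannot be counted as independent measurements.

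Grb10 encodes an adaptor that binds the insulin and IGF1 receptors and dampens their signal. Its values were 7.89, 8.07 and 8.18 on control arrays against 8.08, 7.92 and 8.22 on miR-128 arrays, so that both groups covered nearly the same range. The log2 fold change was 0.03 (SE 0.12, 95% interval -0.26 to 0.31, adjusted p = 0.994 in limma), with 0.07 in its other row. Leaving out miR-Control replicate 1 turned it to -0.05, and so did leaving out miR-128 replicate 3, while without miR-Control replicate 3 it was 0.09. Its RefSeq span overlaps that of another gene, as do the spans of Igf2, Peg3, Plagl1, Meg3 and Mest, and whether probes were shared with those genes is not given in the sources used here.

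Cdkn1c encodes p57, an inhibitor of cyclin-dependent kinases that holds progenitors out of the cell cycle. Among the control arrays it read 8.11, 7.80 and 8.43, the widest control spread of the 9 genes (SD 0.31). The miR-128 arrays read 8.18, 8.21 and 8.29 (SD 0.06), all between miR-Control replicates 1 and 3. Means of 8.11 and 8.23 gave a log2 fold change of 0.11 (SE 0.16, 95% interval -0.24 to 0.47, adjusted p = 0.965 in limma), with 0.12 in its other row. The value was -0.04 without miR-Control replicate 2 and 0.27 without miR-Control replicate 3 (adjusted p = 0.414).

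The transcription factors were Plagl1, a zinc finger protein that regulates other imprinted genes and can halt the cell cycle, and Peg3, a large zinc finger protein known for maternal behaviour and for marking stem cells. Plagl1 read 7.82, 7.75 and 7.81 on control arrays against 7.94, 7.89 and 7.98 on miR-128 arrays, and the groups did not overlap. Its control SD of 0.04 was the lowest of the 9 genes. The log2 fold change was 0.14 (SE 0.10, 95% interval -0.08 to 0.36, adjusted p = 0.870 in limma), or 1.10-fold, and it stayed between 0.11 and 0.17 under all alternatives run. Without miR-Control replicate 3 it was 0.15 (adjusted p = 0.499). Groups that do not overlap were found for 12.1% of named genes, 6.87% with miR-128 above, and for 2 of the 9 genes here, both with miR-128 above. For Meg3 this held in 1 of its 3 rows.

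Peg3 read 9.94, 10.16 and 10.45 on control arrays against 10.18, 10.14 and 10.35 on miR-128 arrays. All miR-128 arrays lay between miR-Control replicates 1 and 3. The log2 fold change was 0.04 (SE 0.14, 95% interval -0.29 to 0.36, adjusted p = 0.990 in limma). It was 0.17 without miR-Control replicate 3 (adjusted p = 0.542), -0.08 with the first control left out and -0.03 with the third miR-128 array left out.

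Meg3 is a long noncoding RNA of the maternal chromosome, transcribed from the domain that also holds Dlk1 and a large group of microRNAs. By control mean alone its highest row (6.91) was one that differed by 0.13 (unadjusted p = 0.305 in limma) with groups that overlap. In the row of highest mean over all arrays, Meg3 read 6.90, 6.81 and 6.97 on control arrays against 6.98, 7.34 and 7.21 on miR-128 arrays. All miR-128 arrays lay above all controls, with miR-128 replicate 1 (6.98) nearly level with miR-Control replicate 3 (6.97). Group means of 6.89 ± 0.08 and 7.17 ± 0.18 (SD, n = 3) gave a log2 fold change of 0.28 (SE 0.12, 95% interval 0.00879 to 0.56, unadjusted p = 0.0445, adjusted p = 0.685 in limma), or 1.22-fold. Its other 2 rows were higher by 0.13 and 0.15 with groups that overlap, since miR-Control replicate 3 read 7.10 and 6.92 there, and the mean of the 3 rows differed by 0.19 (adjusted p = 0.845). Leaving out single arrays gave 0.20 to 0.38, with 0.32 (adjusted p = 0.384) without miR-Control replicate 3. Its control mean, like that of Igf2, lay inside the range of the microglia and endothelium markers.

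The mean level of the oligodendrocyte lineage markers was higher on all 3 miR-128 arrays than on any control array, as in the rows used for Meg3 and Plagl1, and no marker passed. Their mean log2 level over 7 markers ran from 8.72 to 8.82 on control arrays and from 8.92 to 9.05 on miR-128 arrays, with 6 of 7 markers higher and none passing. Cspg4, a proteoglycan gene of oligodendrocyte progenitors, was at 0.35 (adjusted p = 0.649 in limma). Pdgfra, the marker that was lower, was at -0.04 (adjusted p = 0.988 in limma). Of 8 radial glia and neural stem cell markers 3 were higher and 5 lower, with a median of -0.02 and none passing. Among them Fabp7 was at -0.30 (adjusted p = 0.641 in limma), with all miR-128 arrays below all controls, as for 5.27% of named genes. Hes5 was at 0.33 (adjusted p = 0.730 in limma), with groups that overlap. Of 5 astrocyte markers 4 were higher, with a mean level of 7.71 to 7.85 on control arrays and 7.83 to 7.91 on miR-128 arrays; S100b was at 0.32 (adjusted p = 0.578) and Gja1, the main astrocyte gap junction gene, at -0.29 (adjusted p = 0.698). The part of these cell types in the Meg3 and Plagl1 values was not tested, and in bulk RNA a shift in cell numbers cannot be told apart from a shift per cell.

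**Figure D2:**
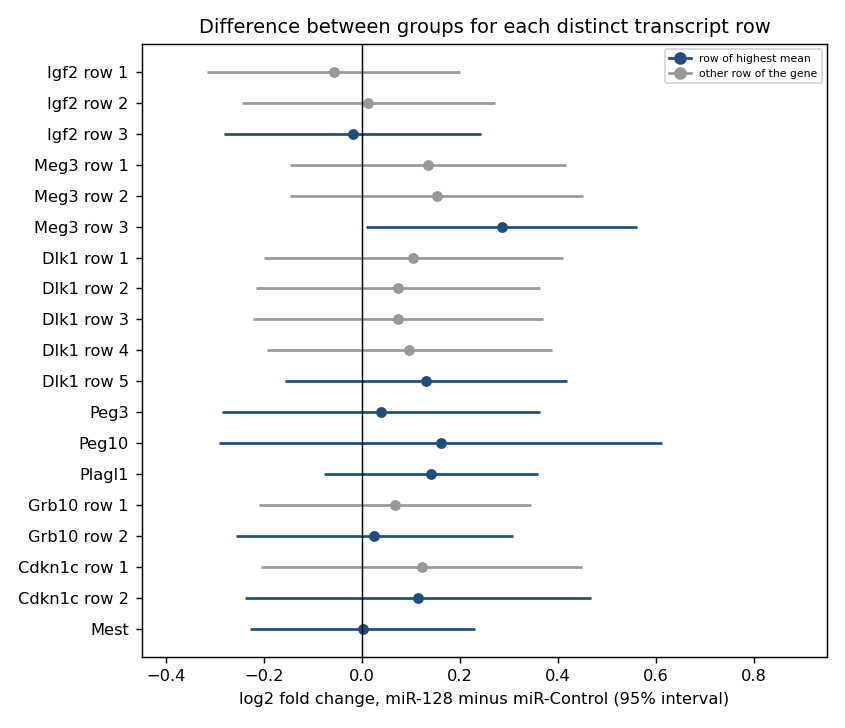
Log2 fold change of miR-128 over miR-Control (x axis) for each of the 19 distinct rows of the 9 genes (y axis), with the 95% interval from limma as a bar; blue marks the row of highest mean and grey the other rows of a gene. Only the third Meg3 row has an interval that does not reach 0 (0.00879 to 0.56), before adjustment over all rows.

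Peg10 derives from a retrotransposon whose gag and pol parts it kept, and it is needed for the placenta. Its signal was 11.62, 11.11 and 11.10 on control arrays against 11.62, 11.05 and 11.65 on miR-128 arrays. The arrays therefore fell into 3 between 11.62 and 11.65 (miR-Control replicate 1 and miR-128 replicates 1 and 3) and 3 between 11.05 and 11.11, with a gap of 0.51 and members of both groups on either side. The log2 fold change was 0.16 (SE 0.20, 95% interval -0.29 to 0.61, adjusted p = 0.957 in limma), the widest interval of the 9 genes. Leaving out single arrays gave 0.06 to 0.36, with 0.07 without miR-Control replicate 3, and array weights gave 0.01.

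The 2 named genes whose values ran most like Peg10 over the 6 arrays were Mmp15 and Usp2, with Pearson r of 0.997 and 0.989. They were searched for after the Peg10 values were seen and chosen for this likeness, so their values are a description. Mmp15, a membrane metalloproteinase gene, read 11.27, 10.87 and 10.84 on control arrays against 11.25, 10.83 and 11.32 on miR-128 arrays. Of 10130 other genes with an above-median SD over the arrays 267 had an r above 0.9 with Peg10. Sgce, the imprinted neighbour of Peg10, read 10.14, 10.45 and 10.01 on control arrays against 10.36, 10.45 and 10.10 on miR-128 arrays, without that split.

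Mest encodes a protein of the hydrolase fold family that is strongly expressed in mesoderm. Its signal was the highest of the 9 genes, at 13.04, 12.98 and 12.85 on control arrays against 12.97, 12.96 and 12.95 on miR-128 arrays. The miR-128 arrays lay close together and inside the range of the controls. Both group means were 12.96, with SDs of 0.10 and 0.01 (n = 3). The log2 fold change of 0.00125 had a 95% interval of -0.23 to 0.23, or 0.854-fold to 1.17-fold (adjusted p = 1.00 in limma). With miR-Control replicate 3 left out it was -0.05, with miR-128 replicate 1 left out -0.00477, and -0.05 under array weights.

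By parental copy, the 6 paternally expressed genes differed by -0.02 to 0.16 and the 3 measured maternally expressed genes by 0.03 to 0.28. These ranges overlap, and the difference between the sets was not tested.

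The signal on the control arrays placed Mest at the 99.8th percentile of all rows, Peg10 at the 97.0th and Peg3 at the 89.3rd. Cdkn1c, Grb10, Dlk1 and Plagl1 lay between the 55.2nd and the 59.8th percentile, and Igf2 and Meg3 at the 42.5th and the 40.2nd. For orientation, 7 of the 9 genes lay above the highest of the microglia and endothelium markers. Markers of choroid plexus and of meninges and mesenchyme reached higher control means, up to 8.07 (Folr1) and 8.96 (Foxc1). The control means of Plagl1, Dlk1, Grb10 and Cdkn1c lay below that of Foxc1. Probe differences between genes remain in these places.

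Spread between the control arrays was about that of other rows, with a median SD of 0.16 over the 9 genes and 0.16 over all named genes. Set against the 1000 rows of nearest level, Peg10 (SD 0.30), Cdkn1c (0.31) and Peg3 (0.25) varied more than 92.1%, 88.7% and 77.4% of them. Plagl1 (0.04) and Meg3 (0.08) varied more than 5.2% and 17.9% only, and the other 4 genes lay between 28.4% and 69.8%. In the rows used, the 2 genes with groups that do not overlap were those with the tightest controls, and tight controls by themselves make overlap less likely. The other Meg3 rows had control SDs of 0.18 and 0.19, more than 54.6% and 57.6% of rows of like level.

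**Figure D3:**
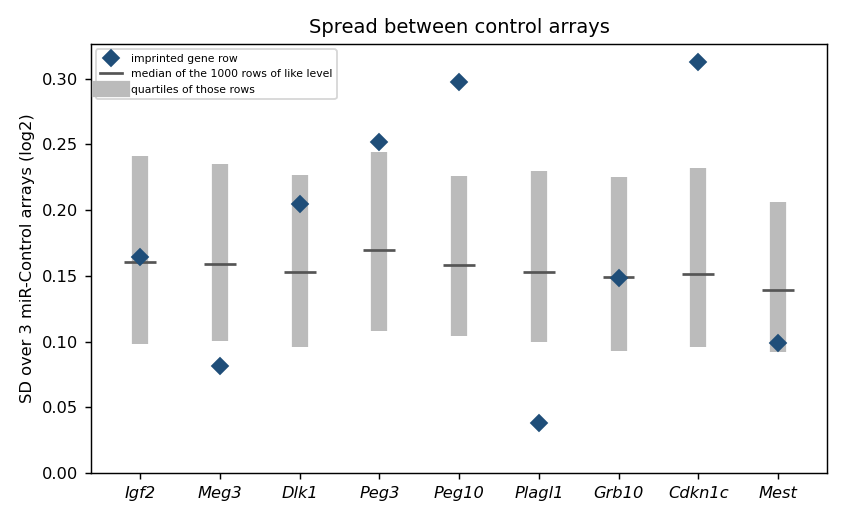
SD over the 3 miR-Control arrays (y axis, log2 units) of each imprinted gene (diamonds, x axis), beside the median (line) and the quartiles (ends of the grey bar) of the 1000 rows closest in mean level. Peg3, Peg10 and Cdkn1c lie above the grey bar, and Meg3 and Plagl1 below it.

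The median SD of the 9 genes was 0.115, 0.195 and 0.129 with control replicate 1, 2 or 3 left out. In the rows used, replicate 3 was the highest control for 6 of the 9 genes and the lowest for 2, Peg10 and Mest, where 42.5% of named genes had it highest. The count depends on the rows. In all other Dlk1 rows replicate 1 was the highest control, and in the other Grb10 row replicates 2 and 3 were level at 7.94. Relative to the mean of the other 2 controls, replicate 3 stood 0.47 higher for Cdkn1c and 0.39 higher for Peg3, more than 95.7% and 97.5% of rows of like level. For Igf2 the excess was 0.28, beside a median of 0.19 among rows of like level on that array, and for Mest the deficit was -0.16 beside -0.13. Markers of meninges and mesenchyme, cells in which Igf2, Dlk1 and H19 are known to be high, had mean levels of 6.63, 6.56 and 6.73 on control arrays against 6.60, 6.69 and 6.67 on miR-128 arrays. Of these 9 markers Dcn (5.10), Lum (3.83) and Postn (5.27) had low control means and Foxc1 (8.96) the highest. Their part in the spread was not tested.

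Pairs of the 9 genes were also compared over the 6 arrays, as a description. By Pearson r, Dlk1 and Cdkn1c (0.911) and Peg3 and Grb10 (0.896) ran most alike, while Peg3 and Mest (-0.921) and Igf2 and Mest (-0.907) ran opposite. Spearman's rho gave another order, with Peg3 and Grb10 and Igf2 and Cdkn1c at 0.943, Dlk1 and Cdkn1c at 0.771, and Cdkn1c and Mest most opposite at -0.943. All pairs share the same 6 arrays, including miR-Control replicate 3, and were not compared over fewer. Cdkn1c, with the widest range of the 9 genes (0.63), was followed most closely by Ccdc60, Tmem210, 4921533I20Rik, Kif19a and Igfbp1 (r from 0.991 to 0.998), and 448 of 10130 genes had an r above 0.9 with it. Meg3 was followed by Vmn2r-ps11, Gem, Gm826, Tssk1 and Bhlha9 (r from 0.978 to 0.996), with 57 genes above 0.9. Like Cdkn1c, each of the genes named as following it had its highest value on miR-Control replicate 3. A high r over 6 arrays does not show a link between genes, and what these genes share was not tested.

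Genes that lie in the same imprinted domains gave no call either. Of 30 listed neighbours 29 had a row, 18 were higher and 11 lower, and none passed, with a median log2 difference of 0.04. In the Meg3 domain, Rtl1 (0.07), Rian (0.02) and Mirg (0.04) differed less than Meg3, all with overlapping groups. Their control means of 6.70, 5.90 and 5.97 lay, like that of Meg3, inside the range of the microglia and endothelium markers. Beside Peg3, Zim1 differed by 0.08 and Usp29 by 0.14. Without miR-Control replicate 3 the list's median was 0.11, with Rtl1 at 0.17, Rian at 0.03, Mirg at 0.16, Zim1 at 0.21 and Usp29 at 0.05. Beside Mest, Copg2, a coat protein gene whose span overlaps it, differed by -0.04. Lowest in p were Tssc4, in the Cdkn1c domain, at -0.23 (SE 0.15, adjusted p = 0.852 in limma) and Ppp1r9a, near Peg10 and encoding the actin-binding protein neurabin, at 0.15 (SE 0.10, adjusted p = 0.861), whose miR-128 arrays lay above all controls. Tssc4 was at -0.07 without miR-Control replicate 1 and at -0.37 without miR-Control replicate 3. Ppp1r9a stayed between 0.11 and 0.18 when single arrays were left out.

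Imprinted genes of other domains lay on both sides of 0. All 28 were measured, 15 higher and 13 lower, with a median of 0.00382 and none passing. Nnat, which encodes a small membrane protein of the developing brain, was at 0.21 (SE 0.12, adjusted p = 0.793 in limma) and Inpp5f, an inositol phosphatase gene, at -0.21 (SE 0.12, adjusted p = 0.798). Snrpn and Snurf, which share their transcript, had identical values and count as 2 of the 28.

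Around Igf2 and Grb10, none of 11 ligands, receptors and adaptors of IGF and insulin passed, with 7 higher and 4 lower and a median of 0.05. Irs1, the docking protein of both receptors, was at 0.44 (SE 0.16, adjusted p = 0.611 in limma), with 10.45, 10.19 and 10.24 on control arrays against 10.92, 10.39 and 10.89 on miR-128 arrays. The insulin receptor gene Insr was at 0.32 (adjusted p = 0.673), the IGF1 receptor gene Igf1r at 0.21 and the IGF2 receptor gene Igf2r, itself imprinted, at -0.09, all 3 with groups that overlap.

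Of 10 IGF binding proteins and Igf2 mRNA binding proteins 7 were higher and none passed, with a median of 0.04. Igfbp5, a secreted binder that controls access of IGFs to their receptor, read 10.40, 10.22 and 10.21 on control arrays against 10.81, 10.69 and 10.69 on miR-128 arrays. All miR-128 arrays lay above all controls, at a log2 fold change of 0.45 (SE 0.11, unadjusted p = 0.00224, adjusted p = 0.391 in limma). Igf2bp2, which binds Igf2 mRNA, was at -0.15 (adjusted p = 0.925).

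Among 17 measured genes that set or keep DNA methylation imprints 10 were higher and 7 lower, with a median of 0.00877, and none passed. Zfp57, the imprint keeper whose letters are marked in the sequences above, read 7.97, 7.79 and 7.67 on control arrays against 7.55, 7.61 and 7.51 on miR-128 arrays. Every miR-128 array was below every control, at a log2 fold change of -0.26 (SE 0.11, unadjusted p = 0.0491, adjusted p = 0.698 in limma). Tet2, a methylcytosine oxidase gene, was at 0.24 (adjusted p = 0.759), with miR-128 above.

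A list of relatives of the 9 genes gave 5 higher and 4 lower of 9 measured, with a median of 0.00869 and none passing. It also holds kinase inhibitors of the separate Cdkn2 family, and Rtl1 and Zim1 are counted among the domain neighbours as well. Cdkn1a, which encodes p21 of the same inhibitor family as Cdkn1c, read 12.48, 12.57 and 12.56 on control arrays against 12.22, 12.40 and 12.25 on miR-128 arrays, a log2 fold change of -0.25 (SE 0.10, adjusted p = 0.667 in limma) without overlap. Cdkn2a was at -0.42 (SE 0.24, adjusted p = 0.811), with 9.52, 9.90 and 10.61 in the controls, the last in miR-Control replicate 3, and without that array it was at -0.12 (adjusted p = 0.735). Of 6 Notch receptors and other proposed partners of Dlk1 5 were higher, with a median of 0.14 and none passing, and Notch1 was at 0.28 (adjusted p = 0.768) and Notch2 at 0.16 (adjusted p = 0.913). The median of these 6 rested on single arrays, at 0.07 when miR-Control replicate 2 or the third miR-128 array was left out and 0.23 when the second miR-128 array was, and it was 0.07 under array weights.

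**Figure D4:**
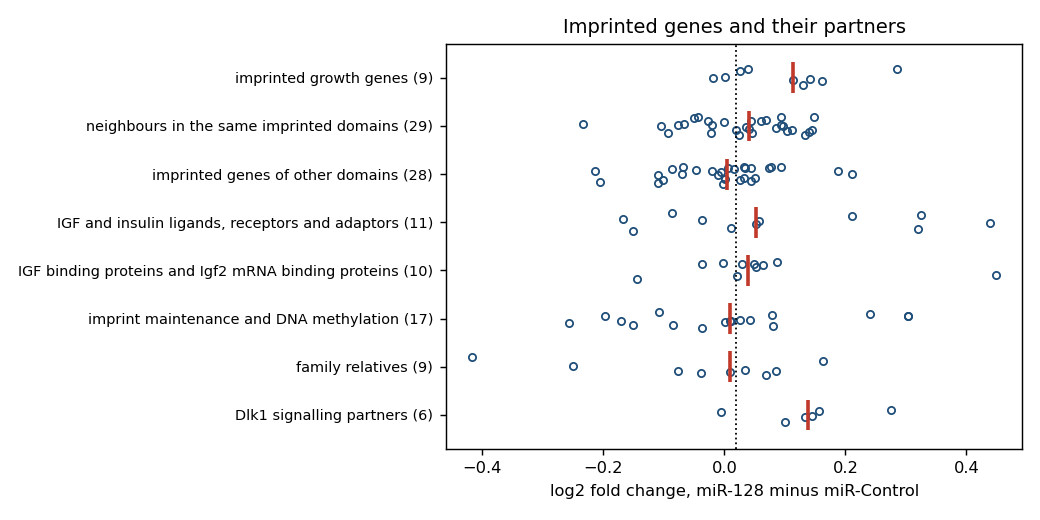
Log2 fold change of miR-128 over miR-Control (x axis) of each measured gene (circles) in the imprinted growth genes and 7 related lists (y axis, number measured in brackets); red lines are list medians and the dotted line is the median of all named genes (0.02). List medians lie between 0.00382 and 0.14, and no gene passed an adjusted p of 0.05.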

How the data were processed

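Transcript levels were measured by exon array in 6 cultures, 3 per group. The deposited values are log2 expression values; the authors used the tools affy and RMA according to the submitters' processing notes, without stated versions. The log2 scale was taken from RMA and the range of values. RMA tends to shrink fold changes. The labelling protocol starts from total RNA, per the labels. The number of arrays limits the precision, with a standard error of 0.13 on the log2 scale for the median row.

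Rows were named by matching RefSeq accessions, without versions, to a gene table of GRCm38.p6 (25343 of 32025 rows, 20263 genes). limma 3.58.1 in R 4.3.3 (lmFit, eBayes) compared the groups, unpaired and two-sided, with no filter on low values and Benjamini-Hochberg adjustment over all 32025 rows at 0.05. It was also run on simulated data with noise independent between rows and no outlying array, which does not show how it behaves on these arrays.

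The genes, lists and naming rule were chosen with earlier results of these data known. Named are the 10 genes, the 2 genes of smallest p of each list and marker list, and the 5 genes most correlated with the gene of widest range and with that of smallest p. Igf1r, Igf2r, Sgce, Copg2, Rtl1, Rian, Mirg, Zim1, Usp29 and Pdgfra, the single marker levels and the genes most like Peg10 were added after values were seen. Marker genes of the rule whose fold changes are not given above were Dcx (0.24), Map2 (0.06), Aif1 (0.16), Csf1r (0.06), Postn (-0.15), Col1a1 (0.12), Ttr (0.09), Folr1 (0.08), Tek (-0.17) and Cldn5 (-0.11), as log2 fold changes, none passing. Alternatives were other scalings, a level filter, array weights, an unmoderated test, an intensity trend, a replicate block, the mean of a gene's rows and leaving out each array.

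Groups share replicate numbers 1 to 3, without a stated pairing. H19 was not analysed here. One marker gene that the naming rule picks is not reported here.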

Additional observations from a re-analysis of the deposited data

How the results depend on the processing

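No imprinted gene passed under any alternative run, with a lowest adjusted p of 0.371 for Meg3 under array weights. Meg3 (0.19 to 0.38), Plagl1 (0.11 to 0.17), Dlk1 (0.01 to 0.21) and Peg10 (0.01 to 0.36) were above 0 under all alternatives, the last 2 at values near 0 under some. Centring on medians gave Grb10 -0.00251 and Mest -0.0268, and array weights gave Igf2 0.0314 and Mest -0.0476. Leaving out single arrays gave ranges that cross 0 for Cdkn1c (-0.0425 to 0.270), Grb10 (-0.0539 to 0.104), Igf2 (-0.0708 to 0.0755), Mest (-0.0529 to 0.0438) and Peg3 (-0.0815 to 0.170). The median of the genes was 0.03 to 0.15 in the same runs. Over all rows 4 passed above the median level and 24 under array weights, against 0; the cause was not tested. Leaving out single arrays also moved the list medians, to 0.00152 to 0.11 for the domain neighbours, -0.02 to 0.02 for imprinted genes of other domains, 0.00690 to 0.08 for IGF and insulin, -0.01 to 0.08 for the binding proteins, -0.08 to 0.00596 for imprint maintenance, -0.04 to 0.03 for the relatives and 0.07 to 0.23 for the Dlk1 partners. The IGF and insulin list had a median of 0.13 above the median level, where fewer genes were tested. Same-numbered arrays deviated with correlations of -0.00278, 0.17 and 0.05, so the numbers are not shown to pair the cultures; with the replicate block 0 rows passed, the median of the genes was 0.11 and their lowest adjusted p was 0.642.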
